A study of Mus musculus with 9 samples.

Results

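Macrophages carrying 2 opposite substitutions of the same STAT6 residue were compared: Stat6S807E/S807E (SE) against Stat6S807A/S807A (SA). The comparison used the 6 libraries that the genotype labels and column names give to these groups, 3 of each, out of 9 in the series. The other 3 libraries came from wild-type mice (WT) and shared the fit. All cells were primary peritoneal macrophages elicited with an agent given as Thio in the design text, left to adhere for a short time in culture (DMEM, 10% fetal bovine serum) and profiled by poly(A) RNA sequencing. No cytokine treatment, age or sex is given in the labels, and the genotypes apply to the whole mouse. Whether each library of a group stands for its own animal is not stated, and p-values therefore describe only how far these libraries spread, which may be technical.

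STAT6 is the transcription factor activated by interleukin-4 and interleukin-13. Receptor-bound Janus kinases phosphorylate it on a tyrosine, after which it forms dimers, enters the nucleus and drives alternative activation of macrophages, a state marked by arginase 1, chitinase-like proteins and the resistin-like protein RELMalpha. Residue 807 is a serine in the C-terminal transactivation domain. Alanine there cannot be phosphorylated, and glutamate carries a negative charge and is commonly used to imitate phosphoserine. The series title links phosphorylation of this serine to macrophage senescence, so the comparison asks what separates the substitution that cannot be phosphorylated from the one that imitates phosphorylation.

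The codon that both mutations replace is shown with its coding context because the whole comparison rests on it. In the GENCODE M21 annotation (GRCm38) the transcript Stat6-201 encodes 837 residues, and codon 807 lies in exon 22 of 22, on the plus strand at chr10:127659886-127659888. The wild-type reference sequence of chr10:127659856-127659918 is given 5′ to 3′, with the serine codon TCC in capitals. The bases introduced in the mutants were not read from the count table.

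Stat6 codon 807: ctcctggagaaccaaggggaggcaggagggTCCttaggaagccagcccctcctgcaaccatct

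The 9 libraries held between 17286617 and 24618608 counts. Levels are given as CPM, the count relative to the TMM-scaled library total, and 3 counts equal 0.122 to 0.174 CPM depending on the library. All 21 core macrophage markers were tested, with sums of 39780 to 46170 CPM of the unscaled library totals. Gata6, the defining factor of resident large peritoneal macrophages, had at most 1 count in any library. On the leading principal component, which held 27.9% of the variance, the SA libraries lay at 19.8 to 24.5 and the SE libraries at -14.5 to -9.42. The WT libraries lay at -14.7 to -5.11, on the SE side of that axis. SE3 stood apart from SE1 and SE2 on the third component (14.6% of the variance) together with WT2. Without those libraries 1903 genes were called in place of 1376, with 1273 of the 1376 still called.

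Of 13501 genes tested with edgeR's quasi-likelihood test, 1376 (10.2%) differed between SE and SA at a Benjamini-Hochberg adjusted p under 0.05, here referred to as called. Of these, 644 (4.77% of tested genes) were higher in SE and 732 (5.42%) were lower. The share of higher genes among the calls was 46.8%, and it was 33.8% (473 higher, 925 lower) when libraries were scaled by their totals alone. Most changes were small: the median fold of called genes was 1.32, and 173 genes (1.28%) differed at least 2-fold, 53 of them higher (0.393%) and 120 lower (0.889%). The median log2 change of all tested genes was -0.0031. The 3 SE libraries did not overlap the 3 SA libraries in 643 of the 644 higher and 728 of the 732 lower genes, against backgrounds of 14.2% and 14.1% of all tested genes in those directions. The number of calls fell to 836, 781, 908 and 811 when SA1, SA2, SA3 or SE1 was left out.

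The large decreases lay among scarce transcripts. At least 4-fold, 4 genes were higher and 42 were lower in SE, and the median level of those 42 was 1.01 CPM. Of the 42, 16 belonged to the extracellular matrix or fibroblast lists described further on. Among the 9547 genes with a mean of at least 5 CPM, 1121 (11.7%) were called, 548 higher (5.74%) and 573 lower (6.0%), and 16 higher (0.168%) against 12 lower (0.126%) reached 2-fold.

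**Figure D1:**
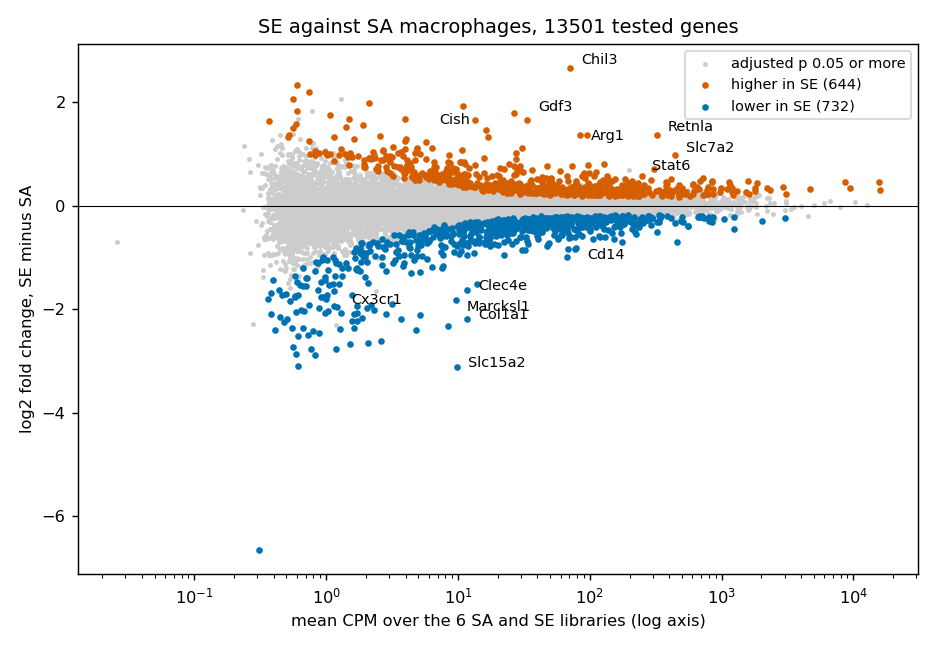
Log2 fold change (SE minus SA) of each tested gene against its mean CPM over the 6 libraries on a log axis. Orange points are the 644 genes called higher in SE, blue points the 732 called lower, and grey points the remaining genes. Chil3 stands highest among abundant genes and Slc15a2 lowest. The isolated blue point at the bottom is the noncoding transcript Gm47601, which had 0 counts in every SE library, so that its plotted change is no measure of size.

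Stat6 itself was measured first. Its mRNA stood at 195, 200 and 200 CPM in SA1 to SA3 and at 291, 284 and 312 CPM in SE1 to SE3. The WT libraries had 198, 201 and 187 CPM, so SA lay at the WT level and all 3 SE libraries lay above both. The SE level was 1.49-fold the SA level (log2 0.58, standard error 0.06, adjusted p = 5.15e-06). The counts do not show the substituted codon, so this level does not check the labels.

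The genes around Stat6 on chromosome 10 were listed because a mutated locus carries its own flanking DNA. Within 10 Mb of Stat6, 12 of 107 tested genes (11.2%) were called, against 10.2% of all tested genes. By direction, 9 of the 107 were higher and 3 lower, beside 4.77% and 5.42% of all tested genes. Besides Stat6 the higher ones were Cdk4, Gm20492, Ddit3, Atp5b, Cnpy2, Rpl41, Mmp19 and Cd63, and the lower ones were Irak3, Slc16a7 and Dgka. Outside Stat6 their folds ran from 1.16 for Cd63 to 1.98 for Gm20492. The higher neighbours lay from 346.7 kb (Ddit3) to 1240 kb (Cd63) from Stat6. The lower ones lay at 1059.2 kb (Dgka), 2253.5 kb (Slc16a7) and 7440.9 kb (Irak3). The part of flanking DNA in these calls was not tested. Most of these calls were unstable: those of Cdk4, Gm20492, Atp5b, Cnpy2, Rpl41, Cd63, Irak3, Slc16a7 and Dgka each ended on leaving out at least 1 library, whereas those of Ddit3 and Mmp19 did not.

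Few receptors and kinases that feed STAT6 were called. Among 20 tested genes of the interleukin-4 and interleukin-13 receptor list, Stat6 was the 1 gene called higher. Il13ra1, a chain of the type II receptor, the adaptor Dok2 and the phosphatase gene Ptpn6 were called lower, the last of them not without SA1 or SE2. Dok2 stood at 131, 129 and 121 CPM in SA and at 101, 93.3 and 93.5 CPM in SE, 1.33-fold lower (adjusted p = 0.000218). Il13ra1 was 1.41-fold lower (adjusted p = 0.0429), a call that ended on leaving out SA1, SA2, SE1, SE2, SE3 or WT3. The list's 1 higher and 3 lower calls stand beside 4.77% and 5.42% of all tested genes. It counted 1 lower call without SA1 or without SE2. Il4ra, the shared receptor chain, changed by log2 0.08 (standard error 0.08, adjusted p = 0.61) and Jak1 by 0.04 (standard error 0.05, adjusted p = 0.72).

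Some genes of alternative activation were higher in SE. Of 42 tested members of the IL-4/STAT6 list, 19 were called higher and 3 lower, with a median log2 change of 0.27 beside -0.0031 for all genes. The number of higher calls stayed between 18 and 21 under all 17 alternative settings. In every SE library the list's median level was above the 9-library mean (0.17, 0.19 and 0.21 on the scale of log2(CPM + 1)), and in every SA library it was below (-0.03, -0.07 and -0.08), as in WT (-0.13, -0.12 and -0.15).

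Chil3, which encodes the secreted chitinase-like protein Ym1, had the largest increase among genes of at least 5 CPM. It stood at 16.4, 22.3 and 19.6 CPM in SA and at 107, 126 and 134 CPM in SE. The lowest SE library was several-fold above the highest SA library, and WT lay between at 27.0, 28.6 and 35.1 CPM. The difference was 6.31-fold (log2 2.66, standard error 0.12, adjusted p = 1.88e-09). Against WT, Chil3 was lower in SA (log2 -0.64, adjusted p = 0.00429) and higher in SE (log2 2.02, adjusted p = 3.17e-08), contrasts that share libraries with the direct one. Its neighbour Chil4 (Ym2) was 4.61-fold higher but scarce, at 0.176 to 0.411 CPM in SA and 1.03 to 1.36 CPM in SE (adjusted p = 0.00114). Chil4 may have passed the filter on low counts without SA, so its fold and p are a description only. Both genes are close copies of each other, so reads may have been split between them by the counting.

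Arg1, which encodes arginase 1, stood at 49.9, 49.1 and 42.0 CPM in SA and at 128, 118 and 118 CPM in SE. WT, at 46.7, 41.6 and 48.4 CPM, overlapped SA, and SE was 2.58-fold above SA (standard error 0.08 on the log2 scale, adjusted p = 7.37e-09). Retnla, the RELMalpha gene, had 149, 203 and 191 CPM in SA against 419, 492 and 490 CPM in SE. It was 2.58-fold higher (standard error 0.12 on the log2 scale, adjusted p = 1.87e-05), and its WT libraries at 190, 257 and 233 CPM overlapped SA. Rnase2a, a member of the eosinophil-associated ribonuclease family, rose 2.51-fold from 8.24, 10.5 and 10.2 CPM to 22.6, 24.6 and 25.4 CPM (adjusted p = 9.05e-07). Its copies in the same family make its read assignment uncertain.

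Of the suppressors of cytokine signalling, which STAT proteins induce as feedback inhibitors, Cish, Socs1 and Socs2 rose. Cish stood at 8.11, 8.10 and 9.66 CPM in SA and at 22.7, 21.3 and 27.5 CPM in SE, with WT at 7.40 to 9.77 CPM. SE was 2.77-fold higher (adjusted p = 7.55e-07) and did not overlap either other group. Socs1 was higher by log2 0.77 (standard error 0.08, adjusted p = 7.5e-06) and Socs2 by 0.47 (standard error 0.10, adjusted p = 0.0052), while Socs3 gave -0.23 (standard error 0.22, adjusted p = 0.60).

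Other members called higher were surface and signalling genes. Pdcd1lg2, the gene of the checkpoint ligand PD-L2, was higher by log2 0.76 (standard error 0.08, adjusted p = 8.9e-06) and Cdh1, encoding E-cadherin, by 0.81 (standard error 0.12, adjusted p = 0.00019). The transcription factor gene Batf3 stood at 36.0, 35.4 and 34.0 CPM in SA against 53.3, 49.1 and 52.1 CPM in SE (1.47-fold, adjusted p = 0.000124). Mmp12, the macrophage elastase, and Atp6v0d2, a proton pump subunit, were 1.38-fold and 1.39-fold higher (adjusted p = 0.00611 and 0.000564). The small change of Egr2 (1.14-fold, adjusted p = 0.039) lost its call without any 1 of the 3 SA or 3 SE libraries.

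Several textbook members did not follow. Mrc1, the mannose receptor gene CD206, changed by log2 0.07 (standard error 0.06, adjusted p = 0.51), Mgl2 by -0.03 (standard error 0.08, adjusted p = 0.88), Irf4 by -0.03 (standard error 0.07, adjusted p = 0.88) and Pparg by 0.12 (standard error 0.05, adjusted p = 0.20). Called lower were Cd163, Fn1 and Ccl22, where Fn1 lost its call without SA3 or SE1 and Ccl22 without SA1 or SA2. Cd163, the haemoglobin scavenger receptor, fell from 13.8, 14.5 and 12.9 CPM in SA to 8.43, 6.23 and 7.64 CPM in SE (1.84-fold lower, adjusted p = 0.000101).

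Of the 19 higher members, WT lay nearer SA for 14, beside 357 of all 644 higher genes (55.4%). In the contrasts with WT, which share libraries with the direct one, 15 of the 19 were called for SE and 7 for SA, beside 5.04% and 4.07% of all genes. The 19 were picked by the direct contrast. Of all 644 genes higher in SE, 170 were called against WT for SE alone, 136 for SA alone and 24 for both.

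**Figure D2:**
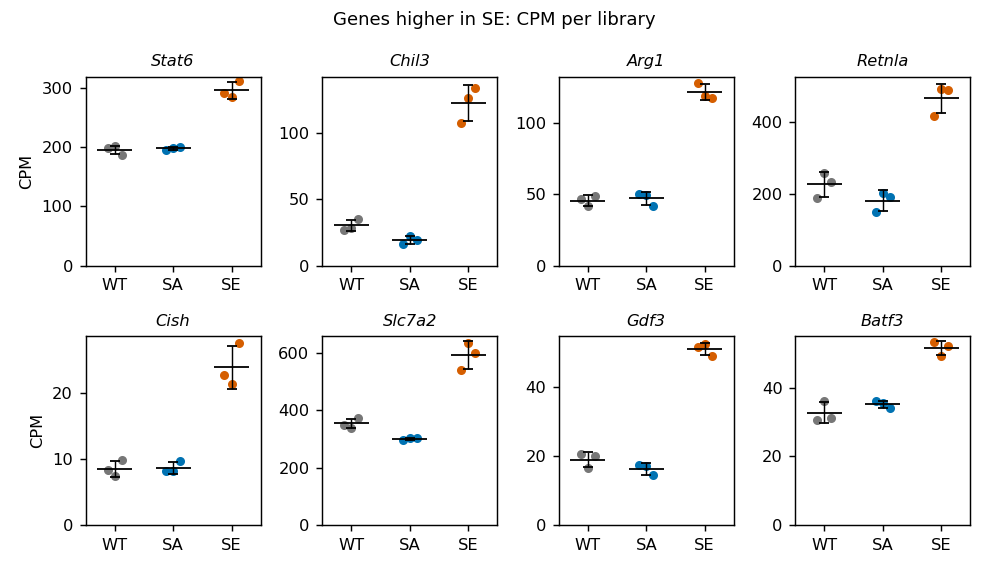
CPM per library (linear axes from 0) of 8 genes called higher in SE. Points are libraries, horizontal lines group means and bars the SD (n = 3). For Stat6, Arg1, Cish and Batf3 the SA and WT points share a level and the 3 SE points lie above it, whereas Chil3 and Slc7a2 are lower in SA than in WT.

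STAT dimers recognise a palindrome of TTC and GAA, and promoter sequences of Chil3, Retnla and Cish are shown because they are strongly changed members that hold such a motif. The windows of Rnase2a and Socs1, which also rose, hold neither form. The spacing TTCNNNNGAA is the one associated with STAT6, and TTCNNNGAA is bound by STAT proteins more widely. RefSeq promoters of GRCm38.p6, from 250 bases before to 50 after each start site, were matched by symbol to 9633 tested genes and searched for both motifs, which read the same on either strand. In the Chil3 window, chr3:106167682-106167781 on the minus strand, a TTCNNNGAA motif in capitals starts 172 bases before the start site. In the Retnla window, chr16:48842419-48842518 on the plus strand, a TTCNNNNGAA motif starts 145 bases before it. In Cish, chr9:107296654-107296683 on the plus strand, a TTCNNNGAA motif starts at the start site and another 11 bases after it. All are written 5′ to 3′ along the gene.
Chil3: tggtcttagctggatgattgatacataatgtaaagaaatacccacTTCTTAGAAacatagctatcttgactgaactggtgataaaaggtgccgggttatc
Retnla: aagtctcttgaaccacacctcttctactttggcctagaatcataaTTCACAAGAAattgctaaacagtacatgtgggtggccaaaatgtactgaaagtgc
Cish: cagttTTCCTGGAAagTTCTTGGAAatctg

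The motifs were not common among called genes as a whole. TTCNNNNGAA was present in 6.99% of all 27025 promoters of that length, in 5.52% of tested genes, in 38 of 499 genes called higher (7.62%) and in 25 of 547 called lower (4.57%). At folds of at least 1.5 the shares were 13 of 119 higher genes (10.9%) and 6 of 178 lower genes (3.37%). TTCNNNGAA was present in 8.47% of all promoters, 6.83% of tested genes, 7.41% of higher and 6.4% of lower genes. Of the 13 higher members of the IL-4/STAT6 list with a promoter in the table, Itgax, Retnla and Pdcd1lg2 held TTCNNNNGAA, and Batf3, Chil3, Chil4, Cish and Il31ra held TTCNNNGAA. Among all 31 tested members with a promoter in the table, 5 (16.1%) held the first and 8 (25.8%) the second, the others being Clec7a and Ccl17 for TTCNNNNGAA and Ccl17, Socs3 and Bcl6 for TTCNNNGAA, none of which was called. These are matches of letters and not binding measurements.

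Some arginine and polyamine genes were higher along with Arg1. Arginase makes ornithine, which ornithine decarboxylase turns into polyamines. Of 21 tested genes, 8 were called higher by edgeR and 7 by DESeq2, and 0 were lower by either tool or at an unadjusted p under 0.05 (median log2 0.12). Slc7a2, the cationic amino acid transporter that imports arginine, stood at 297, 304 and 302 CPM in SA, at 539, 635 and 601 CPM in SE and at 351, 339 and 373 CPM in WT. SE exceeded SA 1.97-fold (adjusted p = 4.58e-08). Slc3a2, another transporter gene of the list, was 1.33-fold higher (adjusted p = 0.000175). Smaller increases passed the test for the enzymes Ass1 (log2 0.40, standard error 0.09), Gatm (0.39, standard error 0.06), Srm (0.39, standard error 0.10), Odc1 (0.31, standard error 0.08) and Paox (0.26, standard error 0.08). Ass1, Srm and Odc1 lost their calls without SA2, SA3 or SE1, and Srm and Odc1 also without SE3. Paox lost its call in 13 of 17 settings, DESeq2 among them. The list's count fell to 4 without SA2, SA3 or SE1 and to 5 without SE3. Arg2, the mitochondrial arginase gene, gave log2 -0.51 (standard error 0.25, adjusted p = 0.23).

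Gdf3, a ligand of the TGF-beta superfamily, was among the most changed abundant genes. It had 17.4, 16.9 and 14.3 CPM in SA and 51.4, 52.2 and 49.0 CPM in SE, 3.13-fold higher (adjusted p = 7.37e-09), with WT at 16.4 to 20.5 CPM. Within the TGF-beta list, 5 of 30 tested genes were called higher and 4 lower, beside 4.77% and 5.42% of all tested genes. The inhibitory Smads Smad7 and Smad6 were 1.54-fold and 1.52-fold higher (adjusted p = 0.000982 and 0.00448). The secreted members Bmp1 and Tgfb3 were 3.83-fold and 2.55-fold lower (adjusted p = 0.0012 and 0.00466). Bmp1 had 1.59 to 2.21 CPM in SA, and Tgfb3 had 1.41 to 1.94 CPM. The lower count was 2 under 6 of the leave-one-out settings, those without SA1, SA2, SA3, SE1, SE2 or WT3. The targets Id1 and Id3, which encode inhibitors of helix-loop-helix factors, were 1.73-fold and 1.41-fold higher (adjusted p = 0.000298 and 3.51e-05).

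Further abundant genes with large increases belonged to none of the lists. Scn3a, a sodium channel gene, rose 3.46-fold from 10.2, 13.5 and 12.3 CPM to 35.1, 46.3 and 42.8 CPM (adjusted p = 4.45e-08). Tmem26, which encodes a membrane protein, rose 2.56-fold from 52.4, 55.7 and 52.98 CPM to 130, 142 and 141 CPM (adjusted p = 1.88e-09). Prps1, which encodes an enzyme of nucleotide precursor synthesis, rose 2.16-fold from 17.1, 22.4 and 18.5 CPM to 40.1, 42.8 and 42.1 CPM (adjusted p = 1.05e-06). In all of these the groups did not overlap and SE also exceeded WT by its own test. Myrf, Mrgpre and, at 1 to 5 CPM, Dio2 and Gprc5b were called lower in SA than in WT and were not called between SE and WT, which is no test that these contrasts differ. Dio2, the deiodinase that activates thyroid hormone, had 0.705 to 0.925 CPM in SA, 3.14 to 3.55 CPM in SE and 2.29 to 4.79 CPM in WT (3.96-fold, adjusted p = 0.000166). Spint1, a protease inhibitor gene, had 17.7 to 18.3 CPM in SA, 36.0 to 37.4 CPM in SE and 28.2 to 30.6 CPM in WT (2.03-fold, adjusted p = 1.04e-07).

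Some genes of class I antigen presentation were higher in SE. Of 27 tested genes, 7 were called higher and 1, H2-M2, lower (median log2 0.15), beside 4.77% and 5.42% of all tested genes. The class Ib genes H2-Q6 and H2-Q7 led with 3.79-fold and 3.15-fold (adjusted p = 3.7e-07 and 6.47e-07). H2-Q7 had 5.86, 5.96 and 7.71 CPM in SA and 19.1, 18.7 and 23.6 CPM in SE, while WT, at 4.79, 6.40 and 6.14 CPM, overlapped SA. These copies are nearly identical and differ between mouse strains, so reads may be assigned to the wrong one. The immunoproteasome subunit Psmb10 rose 1.36-fold (adjusted p = 0.000608), H2-T23 by log2 0.34 (standard error 0.06, adjusted p = 0.0013) and H2-D1 by 0.22 (standard error 0.06, adjusted p = 0.038), the last call ending without SA1, SA2, SA3, SE1, SE3 or WT3. WT lay nearer SA for all 7, beside 357 of all 644 higher genes (55.4%). Without WT2 and SE3, 11 genes of the list were called higher. Of 17 class II genes 0 were called higher by edgeR or DESeq2 (2 at an unadjusted p under 0.05) and 1, the costimulatory gene Cd86, was lower. The shares among all tested genes were 4.77% and 5.42%. Cd86 had 8.29, 12.1 and 8.74 CPM in SA and 5.25, 5.88 and 4.61 CPM in SE (1.85-fold lower, adjusted p = 0.00114). H2-Ab1 and H2-Aa, which encode the class II chains, gave adjusted p = 0.631 and 0.568.

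Some cell division genes were higher in SE than in SA, with wide spread between libraries. Of 56 tested genes of the G2/M and mitosis list, 18 were called higher by edgeR and 17 by DESeq2, and 0 were lower by either tool or at an unadjusted p under 0.05 (median log2 0.43). WT lay above both mutants for 7 of those 18 and between them for 11, beside 11.5% and 72.8% of all 644 higher genes. By edgeR, 10 of the 18 were called lower in SA than in WT, against 2.1% of all genes. Between SE and WT 0 of the 18 were called and 2 had an unadjusted p under 0.05. These contrasts share libraries with the direct one, by which the 18 were picked. Of all 644 genes higher in SE, 136 were called against WT for SA alone and 24 for both mutants. Ccnb2, a mitotic cyclin, had 4.94, 4.03 and 2.93 CPM in SA, 8.09, 6.63 and 7.59 CPM in SE and 9.23 to 10.1 CPM in WT (1.87-fold, adjusted p = 0.00127). Hmmr, a spindle protein gene, had 1.99 to 2.51 CPM in SA and 3.93 to 5.88 CPM in SE (2.03-fold, adjusted p = 0.00181). Top2a, the topoisomerase of dividing cells, was higher by log2 0.66 (standard error 0.10, adjusted p = 0.00038) and Ccnb1 by 0.85 (standard error 0.12, adjusted p = 0.00025). Mki67 missed the threshold at 0.27 (standard error 0.09, adjusted p = 0.082) and passed it without WT1 or WT2, without WT2 and SE3, with the 6 SA and SE libraries alone and without the filter on low counts. Cdk1 gave 0.20 (standard error 0.14, adjusted p = 0.46) and passed in none of the 17 settings.

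The median level of the G2/M list, relative to the 9-library mean, was -0.07, -0.36 and -0.23 in SA1 to SA3 and 0.26, 0.08 and -0.02 in SE1 to SE3, so the groups were adjacent without overlapping. The number called fell to 7 without SA2, 8 without SA3 and 5 without SE1, and rose to 29 without WT2 and SE3. Of 46 G1/S and replication genes, 7 were called higher and 3 lower (median log2 0.17), beside 4.77% and 5.42% of all tested genes. The higher count ranged from 2 to 11 over the settings. The polymerase epsilon gene Pole was 1.98-fold higher (adjusted p = 0.00234). The D-type cyclin genes Ccnd2 and Ccnd3 and the kinase gene Cdk6 were lower, by 3.59-fold, 1.35-fold and 1.25-fold (adjusted p = 0.00955, 0.0023 and 0.00612). Ccnd2 was scarce, at 0.662 to 1.06 CPM in SA and 0.175 to 0.294 CPM in SE, and lost its call without SA1. It may have passed the filter on low counts through SA alone, so its fold and p are a description only.

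Some genes of homologous recombination, which repairs broken DNA in dividing cells, were higher in SE. Of 38 tested genes of the recombination and Fanconi list, 11 were called higher and 2, Rbbp8 and Mre11a, lower. The shares among all tested genes were 4.77% and 5.42%. The list's median stayed near 0 at log2 0.04. Brca1, which directs broken DNA into recombination, had 4.14, 3.82 and 4.11 CPM in SA and 8.73, 9.25 and 8.38 CPM in SE. It was 2.18-fold higher (adjusted p = 1.57e-05), and WT at 6.70 to 7.98 CPM lay between. Its partner gene Bard1 was higher by log2 1.04 (standard error 0.20, adjusted p = 0.0029). Fanci, which forms the Fanconi clamp with FANCD2, was 2.54-fold higher (adjusted p = 0.00154). Brca2 gave -0.09 (standard error 0.23, adjusted p = 0.86). The count of higher calls was 6 without SA2 and 7 without SA1, SE1 or SE2. Both lower calls ended without SA1, SA2, SA3, SE2, SE3 or WT3.

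The senescence and arrest list held calls in both directions. Of its 34 tested genes, 5 were called higher and 7 lower, beside 4.77% and 5.42% of all tested genes, with a median of 0.0018 on the log2 scale. The list mixes genes that rise and genes that fall in senescent cells. These counts therefore do not show senescence itself moving either way. The cell cycle inhibitor gene Cdkn1a, encoding p21, gave 0.11 (standard error 0.06, adjusted p = 0.32). Lmnb1, a nuclear lamina gene lost in many senescent cells, gave 0.30 (standard error 0.13, adjusted p = 0.17). Lower in SE was Igfbp7, 5.53-fold (1.37 to 1.70 CPM in SA, 0.147 to 0.367 CPM in SE, adjusted p = 0.000419). Igfbp7 may have passed the filter on low counts through SA alone, so its fold and p are a description only. Cdkn2b, which encodes p15, was 2.07-fold lower (adjusted p = 0.0443), a call lost with DESeq2 and under each omission of a single SA or SE library or of WT3. Besides Id1 and Id3 the higher genes were Id2, Bhlhe40 and Gadd45b. The count of lower genes was 4 without SA1, SA2, SE1 or SE3. Of 28 p53 targets, 1 (Plk3) was called higher and 2 (Btg2 and Sesn1) lower, beside 4.77% and 5.42% of all tested genes.

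**Figure D3:**
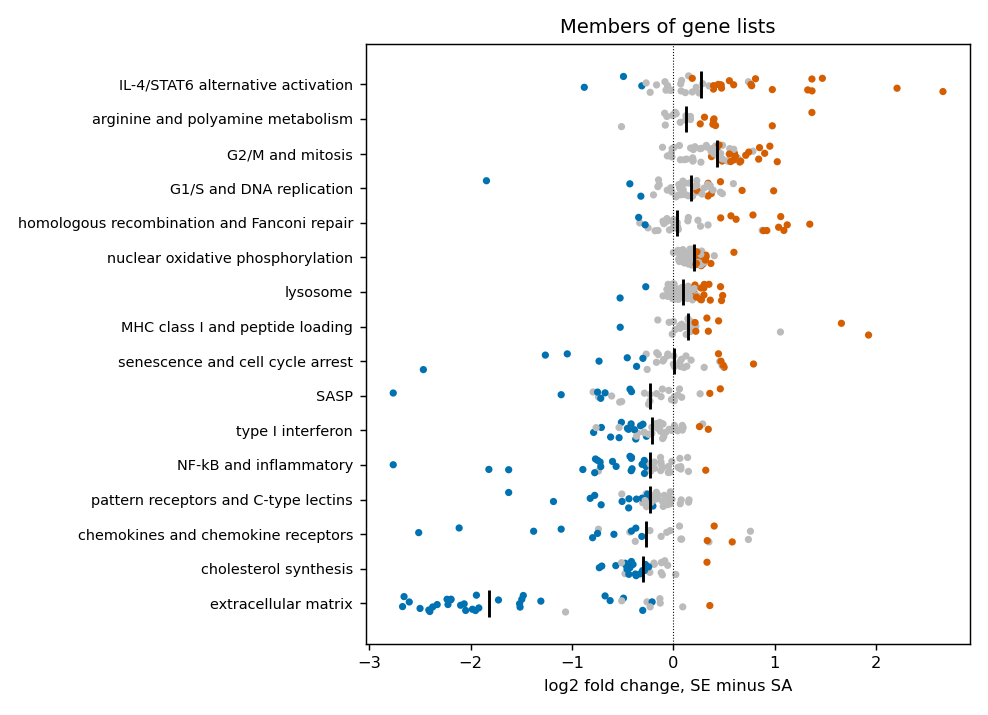
Log2 fold change (SE minus SA) of every tested member of 16 gene lists. Each point is a gene, coloured orange where called higher, blue where called lower and grey otherwise, and black bars are list medians. The IL-4/STAT6 list has its median at 0.27 and the extracellular matrix list at -1.82. The recombination list has 11 orange points apart from a centre near 0.

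Some genes of energy metabolism were slightly higher. Of 53 nuclear genes of oxidative phosphorylation, 18 were called higher by edgeR and by DESeq2, and 0 were lower by either tool or at an unadjusted p under 0.05 (median log2 0.20). The folds of the 18 ran from 1.15 to 1.51, the largest in Atp5k, an ATP synthase subunit at 12.8 to 18.5 CPM in SA and 20.8 to 27.2 CPM in SE, whose call ended without SA2. Cyc1, the cytochrome c1 gene, was 1.29-fold higher (adjusted p = 0.00546). This count was unstable: 9 with scaling by totals alone, 5, 4 and 10 without SA1, SA2 or SA3, 6 and 9 without SE1 or SE3, 10 without WT3, and 28 without WT2 and SE3. Transcript length moved with this result. Among genes of at least 5 CPM the median log2 change was 0.10 for 265 genes with under 1000 exon bases and -0.06 for 1815 genes with 8000 or more. Of the 53 oxidative phosphorylation genes 11 were under 1000 bases, and the part of length in the result was not tested. Of 48 cytosolic ribosomal protein genes 4 were called higher, beside 4.77% of all tested genes, with a median of 0.07. The count ranged from 1 without SA2 to 8 without WT2.

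Of 55 lysosomal genes 14 were called higher and 2 lower, Ctsc among them (median log2 0.10), beside 4.77% and 5.42% of all tested genes. Ctsl, the cathepsin L gene, had 1356, 1328 and 1283 CPM in SA and 1821, 1840 and 1894 CPM in SE. The increase was 1.40-fold (adjusted p = 1.64e-05), and WT at 1812 to 1874 CPM overlapped SE. Gpnmb, a lysosomal membrane glycoprotein gene, had 12577 to 13973 CPM in SA and 17276 to 19334 CPM in SE (1.38-fold, adjusted p = 0.00104). Ctsd was higher by log2 0.36 (standard error 0.07, adjusted p = 0.002). Without SA1, SA2, SE1, SE3 or WT3 the list's higher count was 6, 4, 7, 8 and 8. Of 29 genes of lipid handling, 6 were called higher and 2 lower, beside 4.77% and 5.42% of all tested genes. The lower count was 0 without SA1 or SE1. The lipid droplet gene Plin2 and the fatty acid carrier gene Fabp4 were 1.38-fold and 1.45-fold higher (adjusted p = 0.000107 and 6.07e-05), and neither was called between SE and WT. Mfge8, which bridges phagocytes to dying cells, had 212 to 248 CPM in SA and 352 to 419 CPM in SE (1.63-fold, adjusted p = 1.89e-05).

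Many extracellular matrix genes were lower in SE. Of 38 tested genes, 30 were called lower in SE and 1, Timp2, higher, with a median log2 change of -1.82. Scarce members such as Lamb1 and Loxl1 had means of 0.60 and 0.61 CPM over the 6 libraries. Such members may have passed the filter on low counts through SA alone and then had to differ. This count and median are therefore a description only. Fibrillar collagen is made of the chains encoded by Col1a1 and Col1a2, and collagen VI of those encoded by Col6a1, Col6a2 and Col6a3. Col1a1 had 18.5, 20.3 and 18.9 CPM in SA and 4.07, 3.49 and 4.97 CPM in SE, with WT at 1.20, 1.29 and 1.68 CPM. SE was 4.58-fold below SA (adjusted p = 1.1e-08) and still above WT (log2 1.59, adjusted p = 5.67e-05). Col1a2 had 12.6, 16.3 and 13.6 CPM in SA and 2.30, 2.04 and 4.03 CPM in SE (5.03-fold lower, adjusted p = 7.8e-07).

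Sparc, a collagen-binding glycoprotein gene, had 7.40, 8.46 and 8.58 CPM in SA, 1.57, 1.45 and 1.57 CPM in SE and 0.679 to 0.763 CPM in WT (5.29-fold lower, adjusted p = 4.45e-08). The collagen VI genes Col6a1, Col6a2 and Col6a3 were 6.30-fold, 6.37-fold and 6.08-fold lower (adjusted p = 5.99e-05, 3.06e-05 and 1.76e-05). Col6a3, the highest of them, had 3.70 to 5.19 CPM in SA and 0.343 to 1.10 CPM in SE. Thbs1, the thrombospondin 1 gene, departed from the WT pattern: it had 18.4, 22.2 and 21.0 CPM in SA, 6.81, 6.75 and 7.91 CPM in SE and 10.7, 12.2 and 12.1 CPM in WT, so that SE lay below WT. Across the 30 lower genes WT was nearer SE for 27 and below both mutants for 24, beside 44.9% and 15.2% of all 732 lower genes. Any member that passed the filter on low counts through SA alone is low in WT as well as in SE. These shares and the calls against WT are therefore a description only. SA differed from WT in 27 of the 30 and SE in 9, beside 4.07% and 5.04% of all genes in those contrasts, which share libraries with the direct one. The 30 were picked by the direct contrast. Of all 732 genes lower in SE, 167 were called against WT for SA alone, 184 for SE alone and 32 for both. Restricted to genes of at least 5 CPM in the fit, 8 were called lower and the list's median log2 change was -0.41.

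Some fibroblast markers moved with the matrix genes. Of 19 fibroblast markers 9 were tested and 8 were called lower, 5 of which (Sparc, Col1a2, Col1a1, Col3a1 and Postn) also belong to the matrix list. Tested members include scarce ones such as Prrx1 that passed the filter on low counts through SA alone and so had to differ, and the count is a description only. Among genes of at least 5 CPM 2 of the markers were called lower. The summed level of the 19 markers, as CPM of the unscaled library total, was 54.6 to 62.0 CPM in SA, 12.1 to 16.3 CPM in SE and 6.99 to 8.62 CPM in WT, without overlap between groups. Grem1, which is in neither list and encodes a secreted antagonist of bone morphogenetic proteins, was 6.81-fold lower, from 1.54 to 2.65 CPM in SA to 0.116 to 0.490 CPM in SE (adjusted p = 0.00019). Grem1 may also have passed the filter through SA alone, so its fold and p are a description only. Prrx1, a mesenchymal transcription factor gene, had 0.529 to 0.822 CPM in SA and 0.0981 to 0.157 CPM in SE (5.31-fold lower, adjusted p = 0.00567). Dcn, a defining fibroblast gene too scarce to test, had 10, 5 and 10 counts in SA, 1, 0 and 2 in SE and 0, 1 and 1 in WT. Pdgfra had 5, 4 and 6 counts in SA and 1, 1 and 0 in SE. Other untested markers differed less or went no single way: Pi16 had 5, 7 and 6 counts in SA and 8, 6 and 8 in SE, Fap had 3, 5 and 2 against 5, 4 and 0, Mfap5 had 4, 5 and 7 against 1, 5 and 1, Twist1 had 2, 3 and 8 against 0, 0 and 0, and Lum had 1, 0 and 0 against 0, 0 and 0. Dpt, Thy1 and Tcf21 were at 0 in SA and SE, and the mesothelial markers Msln, Upk1b and Wt1 were at 0 in all 9 libraries. Whether fewer cells of a type or less RNA per cell lies behind such a difference cannot be told apart in bulk samples, and the part of fibroblasts in the matrix result was not tested.

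Slc15a2, which encodes the peptide transporter PEPT2, had the largest decrease among genes of at least 5 CPM. It had 15.8, 20.3 and 17.1 CPM in SA, 1.62, 2.68 and 1.88 CPM in SE and 0.599, 0.470 and 0.419 CPM in WT. No group overlapped another: SE was 8.67-fold below SA (adjusted p = 3.87e-09) and above WT (log2 2.004, adjusted p = 0.000412). The related gene Slc15a3, a lysosomal transporter, went the other way, from 596, 571 and 615 CPM in SA to 833, 825 and 913 CPM in SE (1.44-fold, adjusted p = 7.86e-05).

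**Figure D4:**
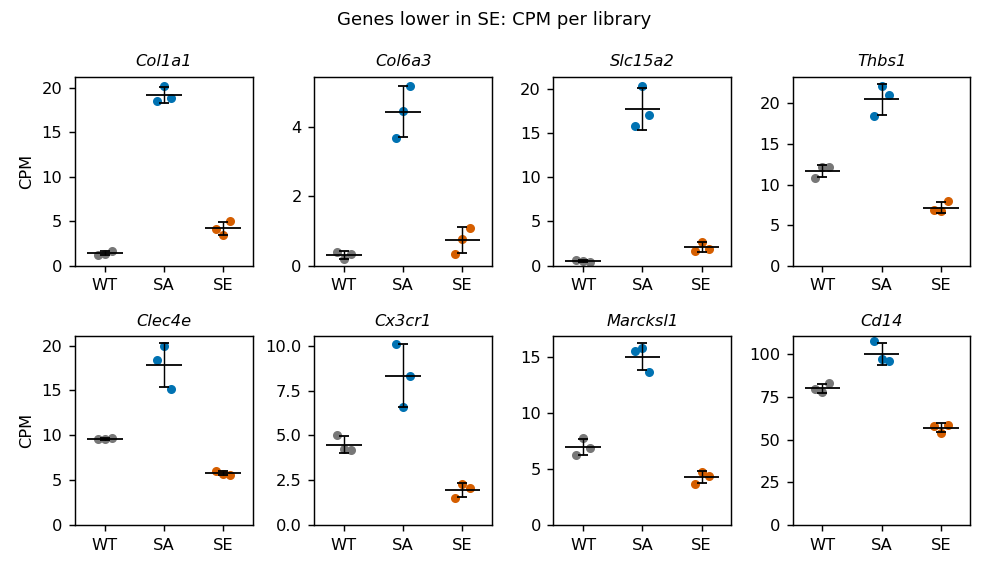
CPM per library (linear axes from 0) of 8 genes called lower in SE, with points for libraries, lines for group means and bars for the SD (n = 3). For Col1a1, Col6a3 and Slc15a2 the WT points lie at the bottom and SA stands alone, whereas for Thbs1, Clec4e, Cx3cr1, Marcksl1 and Cd14 WT lies between SA and SE.

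Many inflammatory genes were lower in SE. NF-kB is the transcription factor that toll-like receptors and tumour necrosis factor activate. Of 43 tested genes of the NF-kB list, 20 were called lower and 1, the kinase gene Ripk2, higher (median log2 -0.23). The lower count stayed between 17 and 23 under all 17 settings. The list's median level was 0.18, 0.13 and 0.18 in SA1 to SA3 and -0.11, -0.10 and -0.07 in SE1 to SE3. WT was at -0.13, -0.02 and -0.09, and it was nearer SE for 17 of the 20 lower genes, beside 44.9% of all 732 lower genes.

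Il1b, the interleukin-1 beta gene, was 6.79-fold lower but scarce: 1.54, 1.27 and 1.23 CPM in SA and 0.147, 0.291 and 0.157 CPM in SE, near the level of 3 counts (adjusted p = 0.000285). It may have passed the filter on low counts through SA alone, so its fold and p are a description only. Marcksl1, which encodes an actin-regulating protein, had 15.6, 15.8 and 13.6 CPM in SA and 3.68, 4.71 and 4.40 CPM in SE. It was 3.53-fold lower (adjusted p = 9.79e-08), and WT at 6.27 to 7.75 CPM lay between the groups. Tnf was lower by log2 -0.72 (standard error 0.11, adjusted p = 0.00048) and the inflammasome gene Nlrp3 by -0.78 (standard error 0.10, adjusted p = 5.1e-05). The IkappaB family genes Nfkbiz, Nfkbie and Nfkbia, which are also NF-kB targets, changed by -0.89, -0.60 and -0.29 (standard errors 0.11, 0.08 and 0.08). All were called, Nfkbia not without SA1, SA3, SE1 or SE2. Ptgs2 (-0.02, standard error 0.25, adjusted p = 0.98) and the subunit genes Rela (0.05, standard error 0.06) and Nfkb1 (0.06, standard error 0.06) were not called.

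The SASP, the set of factors that senescent cells secrete, overlapped these genes. Of 29 tested SASP genes 7 were called lower (Il1b, Cxcl10, Ccl5, Tnf, Mmp14, Icam1 and Ccl3) and 2 higher (Mmp12 and Timp2), with a median of -0.23. The shares among all tested genes were 5.42% and 4.77%. All 7 lower genes were called higher in SA than in WT by edgeR, against 1.97% of all genes, and 0 were called between SE and WT, where 1 had an unadjusted p under 0.05. These contrasts share libraries with the direct one, by which the 7 were picked. Of all 732 genes lower in SE, 167 were called against WT for SA alone and 32 for both mutants. Csf2, Mmp3, Areg and Ereg were at 0 in SA and SE. Cxcl10 was 2.15-fold lower, from 0.926 to 1.39 CPM in SA to 0.419 to 0.698 CPM in SE (adjusted p = 0.0395), and lost its call with DESeq2 and without SA2, SA3, SE1 or SE3.

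Some microbial sensors were lower too. Of 40 pattern receptor and C-type lectin genes, 14 were called lower and 0 higher by edgeR and by DESeq2, with 1 higher at an unadjusted p under 0.05 (median log2 -0.23). The lower count was 8 without SA2. Clec4e, which encodes the glycolipid receptor Mincle, had 18.4, 19.9 and 15.2 CPM in SA, 6.03, 5.70 and 5.60 CPM in SE and 9.55 to 9.73 CPM in WT (3.08-fold lower, adjusted p = 1.05e-07). Its relative Clec4n (Dectin-2) was 2.27-fold lower (adjusted p = 8.71e-05). Cd14, the lipopolysaccharide co-receptor, had 108, 97.2 and 96.1 CPM in SA, 57.9, 53.8 and 58.7 CPM in SE and 77.9 to 83.0 CPM in WT. It was 1.77-fold lower (adjusted p = 5.71e-07). In Clec4e and Cd14 both mutants differed from WT, SA upward and SE downward. Tlr2 was lower by log2 -0.71 (standard error 0.07, adjusted p = 9.4e-06), while Tlr4 gave -0.19 (standard error 0.09, adjusted p = 0.20).

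Among 26 tested chemokine and receptor genes, 10 were called lower and 3 higher (median log2 -0.27), beside 5.42% and 4.77% of all tested genes. Cx3cr1, the fractalkine receptor, had 10.1, 6.57 and 8.33 CPM in SA, 1.52, 2.27 and 2.04 CPM in SE and 4.19 to 5.03 CPM in WT (4.33-fold lower, adjusted p = 2.12e-06). Ccr7, the receptor that guides cells to lymph nodes, was 5.70-fold lower at 0.713 to 1.39 CPM in SA (adjusted p = 0.00209). Ccl6 was 1.49-fold higher (adjusted p = 0.00292). The higher count was 1 without SE1 or SE2, and 6 genes were called lower among those of at least 5 CPM. Cx3cr1 also marks monocytes and small peritoneal macrophages. Of 10 tested markers of those cells 5 were lower, Cx3cr1 and F13a1 foremost, and 2, Chil3 and Retnla, were higher. The summed level of the whole list, as CPM of the unscaled library total, was 3301 to 3648 CPM in SA and 3739 to 4143 CPM in SE, and the part of such cells in these results was not tested.

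Some type I interferon genes were modestly lower. Of 44 tested genes 13 were called lower and 2 higher (median log2 -0.21), beside 5.42% and 4.77% of all tested genes. Ifitm3, an antiviral membrane protein gene, had 237, 195 and 217 CPM in SA and 129, 132 and 136 CPM in SE (1.64-fold lower, adjusted p = 7.27e-06), with WT at 155 to 177 CPM. Ifit3 was 1.73-fold lower (adjusted p = 0.000718) and the regulator gene Irf7 lower by log2 -0.45 (standard error 0.06, adjusted p = 0.00015). Stat2, of the receptor pathway, was not called (0.04, standard error 0.06). The lower count was 7 without SA1, SA2 or SE1, and the higher calls of Usp18 and Ifi27 both ended without SA1 or SA3.

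Many genes of cholesterol synthesis were lower in SE. Of 31 tested genes 18 were called lower and 1, Dhcr7, higher (median log2 -0.30), the latter not without SA2, SA3, SE1 or SE3. Idi1, an isomerase of the mevalonate pathway, had 19.1, 21.5 and 19.3 CPM in SA and 12.1, 12.5 and 11.5 CPM in SE (1.66-fold lower, adjusted p = 0.000295). Sqle, which encodes squalene epoxidase, was lower by log2 -0.44 (standard error 0.07), and the master regulator gene Srebf2 by -0.28 (standard error 0.07, adjusted p = 0.012). The call of Srebf2 ended without SA1, SA3 or SE1. WT was nearer SE for all 18 lower genes, beside 329 of all 732 lower genes (44.9%). Of these 18, 12 were called higher in SA than in WT, beside 1.97% of all genes, and by edgeR 0 were called between SE and WT, where 2 had an unadjusted p under 0.05. These contrasts share libraries with the direct one, by which the 18 were picked. Of all 732 genes lower in SE, 167 were called against WT for SA alone and 32 for both mutants. The lower count was 7 without SA1 and 9 without SE1.

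Lipid mediator and iron genes held single large changes. Of 23 prostaglandin and leukotriene genes, 6 were called lower and 2 higher, beside 5.42% and 4.77% of all tested genes. The higher count was 0 without SA1, SA3 or SE1. Alox5, which starts leukotriene synthesis, had 5.20, 5.61 and 5.14 CPM in SA and 2.70, 1.86 and 2.46 CPM in SE, with WT at 4.39 to 5.69 CPM overlapping SA (2.25-fold lower, adjusted p = 0.000211). Hpgd, which degrades prostaglandins, had 80.4, 96.2 and 86.7 CPM in SA and 52.1, 50.2 and 45.1 CPM in SE (1.79-fold lower, adjusted p = 3.34e-06). Slc40a1, the iron exporter ferroportin, was 1.68-fold lower in SE than in SA (adjusted p = 0.00114) and lower in both mutants than in WT. Maf, a transcription factor gene of tissue macrophages, had 92.5, 103 and 101 CPM in SA and 56.5, 57.8 and 51.2 CPM in SE (1.79-fold lower, adjusted p = 7.55e-07). Pdk1, which encodes a pyruvate dehydrogenase kinase, was 1.57-fold lower (adjusted p = 1.15e-05).

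Markers of other cells were at uneven levels. As CPM of the unscaled library totals, the T and NK cell list summed to 363 to 397 in SA and 398 to 476 in SE. The list of endothelial cells and adipocytes summed to 335 to 382 in SA and 382 to 459.5 in SE, and the neutrophil list to 206 to 236 and 233 to 248. Of 18, 14 and 16 markers in these lists, 3, 3 and 5 were abundant enough to test. The untested ones had at most 13 (Klrb1c), 18 (Adipoq) and 16 (S100a9) counts in any library. These sums therefore rest on the tested members and do not by themselves measure such cells. B cell markers summed to 1.57 to 2.04 in SA and 0.810 to 1.22 in SE. Il7r, the interleukin-7 receptor gene and 1 of 3 tested T and NK cell markers, was 1.23-fold higher in SE (adjusted p = 0.0127). Pecam1, 1 of 3 tested endothelial and adipocyte markers, was 1.53-fold higher (adjusted p = 0.0102), and the platelet gene Pf4, 1 of 4 tested, was 1.32-fold higher (adjusted p = 0.0168). Ighm, the 1 tested B cell marker, was 3.09-fold lower at 0.573 to 0.822 CPM in SA (adjusted p = 0.0254). Of 7 tested dendritic cell markers Batf3 was higher, and Ccr7 and Fscn1 (3.80-fold, adjusted p = 0.0369) were lower. The calls of Il7r, Pecam1, Pf4, Ighm and Fscn1 each ended without some single SA or SE library, and the part of such cells in the results was not tested. The neutrophil genes Ly6g and Retnlg, the T cell genes Cd3e and Cd3g and the B cell gene Pax5 were at 0 in SA and SE. Of 5 tested neutrophil markers 1, Mmp8, was called higher (1.19-fold, adjusted p = 0.0348), and the call ended without any 1 SA or SE library or WT3. Of 3 tested eosinophil markers Ear2 was 2.39-fold higher and Ccr3 was 1.74-fold lower (adjusted p = 0.000116 and 0.00596), while the granule genes Epx and Prg2 had at most 2 counts in any library. Of 20 handling stress genes 3 were called higher and 2 lower, beside 4.77% and 5.42% of all tested genes. Egr1 and Jun were 1.41-fold and 1.32-fold higher and Fos was 1.24-fold lower (adjusted p = 0.0473, 0.000148 and 0.0257). The call of Egr1 ended with DESeq2 and without SA1, SA2, SA3, SE1, SE2 or WT3, and that of Fos without SA1, SA3, SE1 or SE2.

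**Figure D5:**
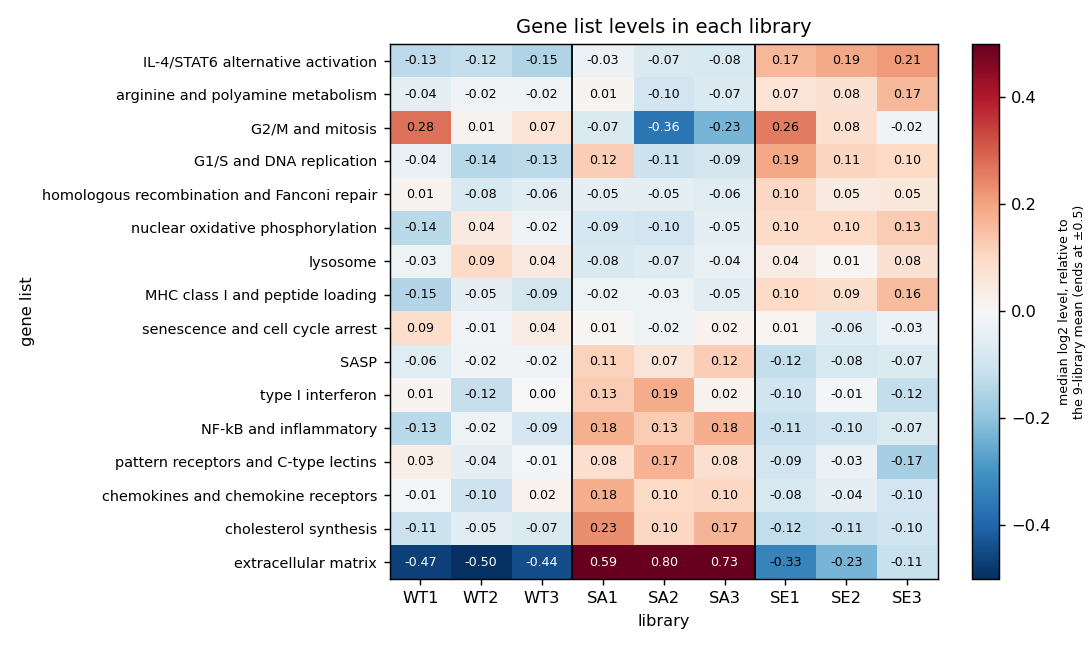
Median log2 level of 16 gene lists in each of the 9 libraries, each gene's log2(CPM + 1) relative to its 9-library mean. Red is higher and blue lower, with colours ending at -0.5 and 0.5. The matrix list separates SA (0.59 to 0.80) from the other 6 libraries, the IL-4/STAT6 list separates SE (0.17 to 0.21), and the G2/M list varies within each genotype.

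Seen from WT, the difference between the mutants was made up of several patterns. WT lay between the mutant means for 469 of the 644 higher genes (72.8%) and 531 of the 732 lower genes (72.5%). Among the higher genes it was nearer SA for 357 and nearer SE for 287, and among the lower genes for 403 and 329. By separate tests against WT, in which 4.07% of all genes were called for SA and 5.04% for SE, 136 of the higher genes were called for SA alone, 170 for SE alone, 24 for both and 314 for neither. Among the lower genes the counts were 167, 184, 32 and 349. In 11 higher and 16 lower genes the mutants were called on opposite sides of WT, as for Chil3 and Clec4e. These contrasts share libraries with the SE and SA comparison, and being called in 1 of them is no test that they differ. Of the 120 genes lower at least 2-fold, 70 were called for SA against WT and 30 for SE against WT. Of the 53 higher at least 2-fold, the counts were 21 and 23.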

How the data were processed

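The authors deposited whole-number read counts for each Ensembl gene. For alignment and counting, HISAT2 2.1.0, featureCounts and mm10 appear in the submitters' processing notes. No source used here gives the featureCounts version, the annotation release or the strand setting, so reads of overlapping antisense genes cannot be told apart. GENCODE M21 supplied names for 55141 of 55401 IDs. Genes were filtered with filterByExpr (minimum count 10, minimum total 15), which left 13501. A gene scarce in SE or in SA may have passed this filter through the other group, and its fold and p are then a description only. All 9 libraries were fitted in R 4.3.3 with edgeR 4.0.16 (TMM scaling, robust quasi-likelihood F test, 2-sided, genotype as the only term, 6 residual degrees of freedom), and p-values were adjusted by Benjamini-Hochberg over all tested genes. Adjusted p-values in the text are from this test. List levels per library are medians of log2(CPM + 1). Limits of 3 counts cover counting error only. Fold changes of lower genes are given as the fold by which SE lies below SA.

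On simulated data the same fit recovered 38%, 86%, 94% and 100% of genes changed 1.25-fold, 1.5-fold, 2-fold and 3-fold (50 each among 13347), and 8.09% of its calls were false. Replicates of a group differed beyond sampling noise, so none was counted as a repeat.

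Gene lists were written from textbook knowledge. Their call counts stand beside 4.77% higher and 5.42% lower among all tested genes. The comparison, its lists and the rule for named genes were chosen with earlier results of these data known. The rule named Stat6, the 15 largest changes in each direction at 5 CPM or more without overlap of libraries, 6 each at 1 to 5 CPM, up to 3 members per list and direction, the 2 most abundant members of each marker list and called genes within 10 Mb of Stat6. Other list members, the untested markers given as counts and Gm47601 were picked after their values were seen. The alternatives were other scalings and filters, DESeq2 1.42.0, a fit of 6 libraries, a replicate block and leaving out libraries. Results for some genes are not reported here.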

Additional observations from a re-analysis of the deposited data

How the results depend on the processing

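The 178 called genes named by the rule kept their direction under all 17 alternatives. Of these, 121 kept their call throughout and 57 lost it in at least 1 setting: all 57 in a fit without 1 library, 13 with library totals, 9 with DESeq2, 14 without WT2 and SE3 and 2 with the 6 SA and SE libraries alone. Of 33 further called genes chosen after their values were seen, 26 kept their call and 7 lost it. Over the fits leaving out 1 library, which hold fewer samples, the called genes ranged from 781 to 1762, those higher from 309 to 868 and those lower from 429 to 894. Restricting the fit to genes of at least 5 CPM left 27 genes of at least 2-fold, 16 higher and 11 lower. DESeq2 called 1378 genes, 1290 of them shared, and library totals called 1398, of which 1196 were shared.

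Of the genes that missed the threshold, 10 changed sign in some setting, and the cause was not tested. With library totals the log2 changes of Cd9, Stat2 and Jak1 were -0.0004, -0.0051 and -0.0052. Without WT2 and SE3 those of Il4ra, Ptgs2, Mgl2 and Brca2 were -0.0191, 0.1464, 0.0468 and 0.0249. Leaving out 1 library gave -0.0182 to 0.1347 for Il4ra, -0.0091 to 0.0657 for Stat2, -0.2185 to 0.3489 for Ptgs2, -0.0852 to 0.0259 for Irf4 and -0.0968 to 0.0479 for Mgl2. The ranges were -0.1596 to 0.0113 for Treml1, -0.3737 to 0.075 for Brca2 and -0.6946 to 0.013 for Zbtb46.

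The replicate block called 1189 genes, 1162 of them shared, and 15 genes named by the rule lost their call. Same-numbered SA and SE libraries deviated together with correlations of 0.063, 0.032 and 0.098, so the numbers were not taken to pair the samples. SA1 and SA3 correlated best with the SE library of their own number and SA2 did not, which is a hint from the data and not from the design. Genes near 3 counts rest on few reads, and 57 of the 64 genes that lost a call had an adjusted p above 0.01 with all libraries (edgeR).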
